A study of Mus musculus with 24 samples.

Results

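Interferon-stimulated genes were followed in the spleen monocytes of mice that lack the lysosomal nucleoside transporter SLC29A3. The set was a list of 47 genes given by symbol, with no threshold on the measured values, although earlier results of these data were known when it was chosen. Of the 47, 43 had a row among the 23930 amplicons of the table. All 43 passed the filter on low values (an RPM, reads scaled to 1000000 per library, of 1 or more in 4 or more libraries) in both monocyte subsets. Ifit3, Isg15, Iigp1, and Ifitm3 were not analysed here. By role, the 43 members were 17 antiviral effectors, 4 sensors of RNA or DNA, 9 transcription factors and other regulators, 6 interferon-induced GTPases and antigen-processing genes, and 7 other members.

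Bulk RNA was sequenced from 24 libraries of untreated spleen cells, 4 in each of 6 groups. Ly6C hi and Ly6C low cells came from wild-type (WT) C57BL/6 mice, from Slc29a3-/- mice, and from Slc29a3-/- Tlr7-/- mice. The mutants were made with Cas9 on the C57BL/6 background, by an insertion that brings a stop codon into exon 2 of Slc29a3 and a small deletion in exon 5 of Tlr7, whereas the WT mice were purchased. Cells were gated as CD11b+, NK1.1-, Ly6G-, and SiglecF-, and both subsets were untreated. The subsets were sorted as Ly6C hi Fcgr4 low and Ly6C low Fcgr4 hi cells. The labels call the cells macrophages and the study calls them monocytes, and the age of the mice is not given in the sources used here. The labels do not say whether the 4 libraries of a group came from separate mice, so the P values measure the spread between these libraries, which may be technical.

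Type I interferon binds its receptor, IFNAR, and through the kinases JAK1 and TYK2 activates a complex that holds STAT2 and IRF9 and binds interferon-stimulated response elements (ISREs) in the promoters of such genes. IFN-γ acts mainly through GAS elements. Many members hold a basal level in monocytes that depends on low, constant interferon signalling. TLR7, a sensor of single-stranded RNA and nucleosides in endosomes, can induce type I interferon through MyD88 and IRF7, most strongly in plasmacytoid dendritic cells.

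The depth inferred from the even step between low values was 12311000 to 14571950 reads per library, so 3 reads corresponded to 0.206 to 0.244 RPM. The amplicons of the targeted genes were still read in the mutants: Slc29a3 stood at 127 to 174 RPM in Slc29a3-/- Ly6C hi cells against 163 to 225 RPM in WT, and Tlr7 at 259 to 344 RPM in Slc29a3-/- Tlr7-/- Ly6C hi cells against 209.8 to 336 RPM in WT. Where these amplicons lie relative to the mutated exons is not given in the sources used here, so the genotypes rest on the labels. WT replicates 1 to 3 carried barcodes 11 to 16, and read Xist but no Ddx3y, while WT replicate 4 read Ddx3y but no Xist and stood apart from them in both subsets. WT replicate 4 carried barcodes 29 and 35, and the mutants carried barcodes from 24 to 46. The inferred depth was 14237250 to 14571950 reads in WT replicates 1 to 3 and 12311000 to 13048300 in all other libraries. Genotype and this block of WT libraries cannot be fully told apart in the comparisons with WT. In 3 libraries (Slc29a3-/- Tlr7-/- replicates 2 and 3 of Ly6C hi and 2 of Ly6C low) both Xist and Ddx3y were read at 70.18 RPM or more. Slc29a3-/- replicate 1 of both subsets read Ddx3y (81.76 and 164.5 RPM), and replicates 2 to 4 read Xist (350.4 RPM or more). Slc29a3-/- Tlr7-/- replicate 1 of both subsets and 3 of Ly6C low read Ddx3y (106.0 RPM or more), and replicate 4 of both read Xist. These genes were thus not balanced between the genotypes, and the part of sex in the comparisons was not tested. The subset labels held against their markers: 4 Ly6C hi monocyte markers summed to 2319 to 6768 RPM in Ly6C hi libraries and to 13.58 to 268.9 RPM in Ly6C low ones, and 7 Ly6C low markers to 1421 to 4157 and 8088 to 17421 RPM. The 7 include Fcgr4, whose product was used in the sort.

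Markers of other cell types moved with genotype in Ly6C hi cells. The 10 neutrophil markers, all read in every group of this subset, took 7.322 to 13.53% of the reads in Slc29a3-/- libraries, 2.377 to 3.279% in WT, and 1.316 to 3.93% in Slc29a3-/- Tlr7-/-, although the gate removed Ly6G+ cells. S100a8 and S100a9, which Ly6C hi monocytes also express, are 2 of the 10. The 10 did not all move alike. Of them 6 were called higher and 2 lower in Slc29a3-/- than in WT (log2 fold changes of -2.11 to 1.87). Against Slc29a3-/- Tlr7-/-, 8 were higher and 1 lower. In the same subset 8 plasmacytoid dendritic cell markers summed to 47.49 to 62.73 RPM in Slc29a3-/-, 101 to 205.5 in WT, and 77.41 to 124.7 in Slc29a3-/- Tlr7-/-. The 6 conventional dendritic cell markers summed to 16.76 to 39.53, 86.81 to 131.2, and 97.23 to 120.8 RPM in the same order, and 4 progenitor markers to 727.3 to 2558.7, 289.0 to 397.5, and 299.9 to 813.5 RPM. The 8 T and NK cell markers, genes of cells that make IFN-γ, summed to 23.07 to 44.12 RPM in Slc29a3-/- and 124.4 to 516.5 RPM in WT, all 8 called lower (median log2 fold change -3.13), and to 10.32 to 653.3 RPM in Slc29a3-/- Tlr7-/-. The part of these markers in the genotype comparisons below was not tested. In bulk RNA, fewer cells of a type and less RNA per cell cannot be told apart.

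The promoters of 4 members are printed to show where they match the core letters of the ISRE. Among the members chosen to be given by library (the rule is in the methods) that had a promoter entry, these had the largest difference between the 2 mutant genotypes in either subset and direction. Igtp, which differed more, was named only after its values were seen and was not chosen from. Sequences are RefSeq's on GRCm38.p6 (mm10), 5′ to 3′ on the gene's strand from position -250 relative to the annotated start, and capitals mark matches to the ISRE core, which is GAAA, any 2 bases, and GAAA again, or on the other strand TTTC, any 2 bases, and TTTC. All 4 genes lie on the plus strand: Gbp2 at chr3:142620413-142620623, Slfn5 at chr11:82951852-82951966, Gbp3 at chr3:142559794-142560024, and Stat2 at chr10:128270248-128270347. In Gbp3 a pair of matches overlap, and the Slfn5 stretch lies downstream of the first annotated base of the gene.
Gbp2: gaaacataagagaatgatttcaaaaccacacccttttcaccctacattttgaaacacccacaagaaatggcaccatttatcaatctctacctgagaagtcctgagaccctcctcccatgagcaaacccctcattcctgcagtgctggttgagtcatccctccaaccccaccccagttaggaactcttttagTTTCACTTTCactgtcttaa
Slfn5: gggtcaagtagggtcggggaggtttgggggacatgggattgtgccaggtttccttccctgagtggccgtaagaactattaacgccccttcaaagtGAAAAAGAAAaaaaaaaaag
Gbp3: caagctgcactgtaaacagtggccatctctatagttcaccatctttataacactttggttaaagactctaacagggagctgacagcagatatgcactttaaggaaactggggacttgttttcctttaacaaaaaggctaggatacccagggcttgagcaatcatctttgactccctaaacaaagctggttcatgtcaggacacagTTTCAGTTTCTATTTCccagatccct
Stat2: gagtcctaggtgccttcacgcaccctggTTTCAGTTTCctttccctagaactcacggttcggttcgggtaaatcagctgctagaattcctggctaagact

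Of the 43 members, 34 had a promoter entry (250 bases before to 50 after the start), and 16 of the 34 (47.1%) held the ISRE core on either strand, against 560 of 17223 genes (3.25%). The 16 included Ifit1, Rsad2, Bst2, and Eif2ak2 among the effectors, the RNA sensors Ifih1 and Ddx58, Stat2 and Trim30a among the regulators, and 5 of the 6 GTPases and antigen-processing genes (all but Tap1). The GAS core TTCNNNGAA, a palindrome, stood in 8 of the 34 (23.5%), among them Ifit2, Ifi35, Gbp7, and Igtp, against 8.31% of all genes. A match is a description of the letters and not evidence of binding. The members were not scattered independently over the genome, since 18 of them lay in 8 groups of neighbours within 1000000 bases, such as Gbp7, Gbp3, and Gbp2 on chromosome 3 (142530336 to 142638008), Mx1 and Mx2 on chromosome 16 (97447035 to 97560901), and Ifit2 and Ifit1 on chromosome 19 (34550550 to 34650009).

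Summed over the 43 members, the reads made up 0.2613 to 0.7076% of a library. The sum was 4999 to 5105 RPM in WT Ly6C hi cells, 3067 to 4923 RPM in Slc29a3-/- Ly6C hi cells, and 5418 to 7076 RPM in Slc29a3-/- Tlr7-/- Ly6C hi cells. These 3 ranges did not overlap. In Ly6C low cells the sums were 2624 to 2980, 2863 to 3517, and 2613 to 3772 RPM in the same order, overlapping between all genotypes. One library at each end of the Ly6C hi range stood apart. Slc29a3-/- replicate 4 was the lowest of the 12 Ly6C hi libraries for 30 of the 43 members, and had the largest share of neutrophil markers. Slc29a3-/- Tlr7-/- replicate 1 was the highest for 22 of the 43, and its 8 T and NK cell markers summed to 653.3 RPM against 10.32 to 78.18 RPM in the other libraries of its group.

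**Figure D1:**
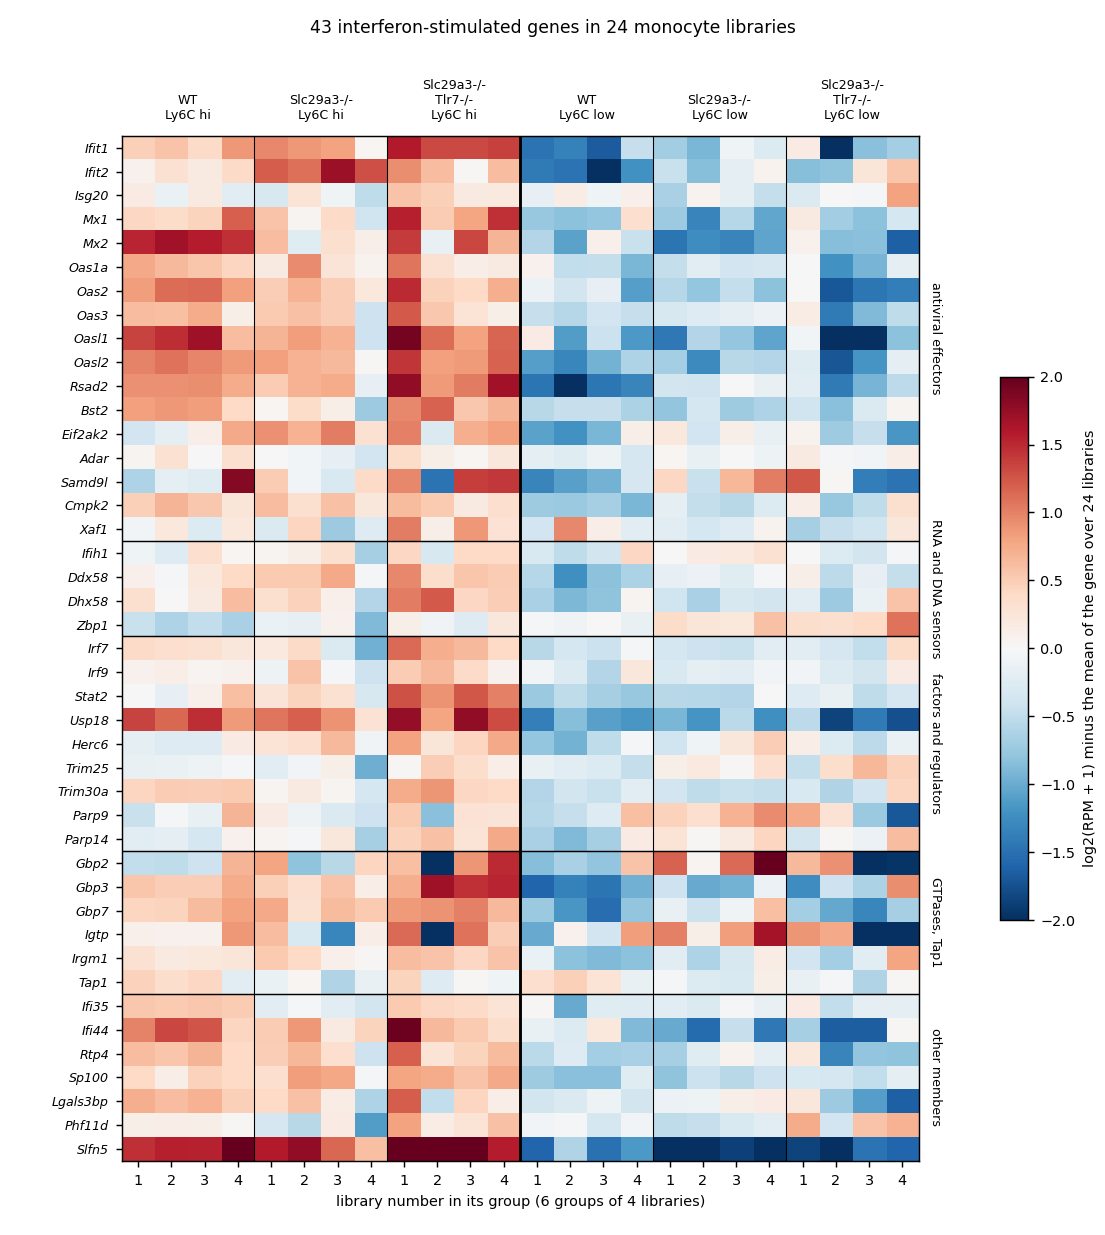
Heatmap of the 43 members (rows, by role) in the 24 libraries (columns, by group), showing log2(RPM + 1) minus the member's mean over the 24 libraries, with colours ending at -2 and 2. The Ly6C low columns are mostly blue, the Slc29a3-/- Tlr7-/- Ly6C hi libraries are the reddest, and Slc29a3-/- Ly6C hi replicate 4 is the palest of the Ly6C hi libraries.

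The subsets differed more than the genotypes did. In WT mice 29 of the 43 members were lower in Ly6C low than in Ly6C hi cells at a Benjamini-Hochberg adjusted P under 0.05 in limma, and 1 was higher, where 19.1% of all genes tested were lower and 10.5% higher. In Slc29a3-/- mice 21 were lower and 1 higher (all genes: 19.1% and 22.1%), and in Slc29a3-/- Tlr7-/- mice 31 were lower and 1 higher (21.4% and 11.8%). The median log2 fold change of the members was -0.91, -0.51, and -0.96 in these genotypes, beside -0.07, 0.10, and -0.12 over all genes. Across the genotypes, 21 members were lower in Ly6C low cells in each of the 3, and 32 in at least 1. The progenitor, neutrophil, and Ly6C hi markers were also far lower in Ly6C low cells (neutrophil markers 8.26 to 2473.7 RPM, against 13163.8 to 135288.1), and their part in the difference was not tested. With replicate 4 alone for WT, most of the calls of lower members were lost in WT. The log2 fold changes in WT then were, for example, -2.02 for Usp18, -1.35 for Oas1a, and -0.27 for Irf7. With all WT libraries they were -2.32, -1.05, and -0.66.

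Antiviral effectors were the longest of the role lists, with 17 of the 43, and gave the most calls, while 6 of the 7 other members were also lower in WT. Of the 17, 14 fell in WT, 12 in Slc29a3-/-, and 14 in Slc29a3-/- Tlr7-/- Ly6C low cells, with median log2 fold changes of -1.25, -0.79, and -1.21. Rsad2, whose product viperin makes a chain-terminating nucleotide, measured 35.7, 35.6, 36, and 31.7 RPM in WT Ly6C hi libraries and 6.08, 2.75, 6.11, and 6.74 RPM in WT Ly6C low ones, with no overlap. Its log2 fold change was -2.53 ± 0.27 (SE, n = 4 against 4, adjusted P = 7.22e-08). The oligoadenylate synthetase Oas1a, whose product activates RNase L, fell from 142 ± 13.8 to 70.1 ± 21.1 RPM in WT (SD, n = 4; log2 fold change -1.05, adjusted P = 0.0023), again with no overlap. Its close paralogs may share reads with it, which makes its level uncertain. Mx1 and Mx2, genes of the dynamin-like GTPase family, fell by 1.11 and 2.05 on the log2 scale in WT. The effectors called in no genotype were Isg20, an RNA exonuclease, and Samd9l.

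Regulators split into those that followed the effectors and those that did not. Usp18, which removes ISG15 from proteins and damps IFNAR signalling, fell from 37.1, 32.1, 40.7, and 26 RPM in WT Ly6C hi cells to 4.82, 7.27, 6.04, and 5.67 RPM in WT Ly6C low cells (-2.32 ± 0.27, adjusted P = 3.75e-07), and by 1.82 and 2.79 in Slc29a3-/- and Slc29a3-/- Tlr7-/- mice. No library of one subset reached the other. Stat2, a subunit of the ISRE-binding complex, fell by 0.81, 0.60, and 1.42 in the 3 genotypes. Its partner Irf9 passed the threshold in Slc29a3-/- Tlr7-/- cells (-0.54 ± 0.18, adjusted P = 0.025), with -0.26 in WT and -0.19 in Slc29a3-/-, and the difference between genotypes did not pass the test. The Irf9 call was lost in 7 of the 15 alternatives run, among them TMM scaling (-0.43, adjusted P = 0.059) and leaving out any of 4 libraries (replicates 1 and 2 of Ly6C hi, 2 and 3 of Ly6C low; up to 0.0848). Irf7, the factor that amplifies interferon transcription, fell in WT (-0.66 ± 0.22, adjusted P = 0.025) and in Slc29a3-/- Tlr7-/- mice (-0.89 ± 0.22, adjusted P = 0.0027), and was -0.18 ± 0.22 in Slc29a3-/- mice (adjusted P = 0.54). The WT call of Irf7 was lost without any of 4 libraries (replicates 1 and 2 of Ly6C hi, 1 and 3 of Ly6C low; adjusted P up to 0.0756).

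Sensors of nucleic acid were divided. Ddx58, which encodes the RNA helicase RIG-I, fell in each genotype, by 0.99, 0.59, and 0.85, the Slc29a3-/- call being lost without Ly6C hi replicate 3 (adjusted P = 0.0634). Ifih1, which encodes the related helicase MDA5, was not called in any, at -0.20, 0.21, and -0.39. Zbp1, a sensor of Z-form nucleic acid that can start necroptosis, was the one member higher in Ly6C low cells. It measured 90.7, 80.5, 87.7, and 79.2 RPM in WT Ly6C hi libraries and 121, 118, 123, and 112 RPM in WT Ly6C low ones, with no overlap. The log2 fold changes were 0.48 (adjusted P = 0.045), 0.62 (adjusted P = 0.007), and 0.53 (adjusted P = 0.026) in WT, Slc29a3-/-, and Slc29a3-/- Tlr7-/- mice. The WT call was lost without any one of its 8 libraries (adjusted P up to 0.0969) and with the replicate number as a block (0.0536), and the Slc29a3-/- Tlr7-/- call without Ly6C hi replicate 2 or 3 or Ly6C low replicate 4 (up to 0.121).

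Among the GTPases and antigen-processing genes, Gbp3 and Gbp7, guanylate-binding proteins that act on vacuoles of intracellular microbes, fell in all 3 genotypes. The log2 fold changes of Gbp3 were -1.91, -0.99, and -1.70, and those of Gbp7 were -1.64, -0.56, and -1.77. The Slc29a3-/- call of Gbp7 (adjusted P = 0.032) was lost in 8 of the 14 alternatives run, with no filter (0.0658) and without any of 6 of its 8 libraries (all but Ly6C hi replicate 2 and Ly6C low replicate 4; up to 0.132) among them. Irgm1, an autophagy-linked GTPase, fell in WT (-0.90) and in Slc29a3-/- Tlr7-/- mice (-0.67, adjusted P = 0.025), the second call being lost in 7 of 15 alternatives, among them TMM scaling (-0.56, adjusted P = 0.0836) and leaving out Ly6C hi replicate 1 or Ly6C low replicate 1, 2, or 3 (up to 0.105). Tap1, a subunit of the peptide transporter that loads MHC class I, lay at -0.02, 0.09, and -0.22 and was not called. Among the other members Slfn5, a Schlafen family gene, had the largest difference of all 43 in each genotype. It measured 144, 153, 151, and 214 RPM in WT Ly6C hi cells and 16.5, 33.6, 17.7, and 22.8 RPM in WT Ly6C low cells. The log2 fold changes were -2.85 ± 0.28, -3.41 ± 0.28, and -4.16 ± 0.28 (adjusted P = 1.86e-08, 3e-10, and 2.17e-11), and the differences between genotypes did not pass the test (adjusted P of at least 0.23).

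**Figure D2:**
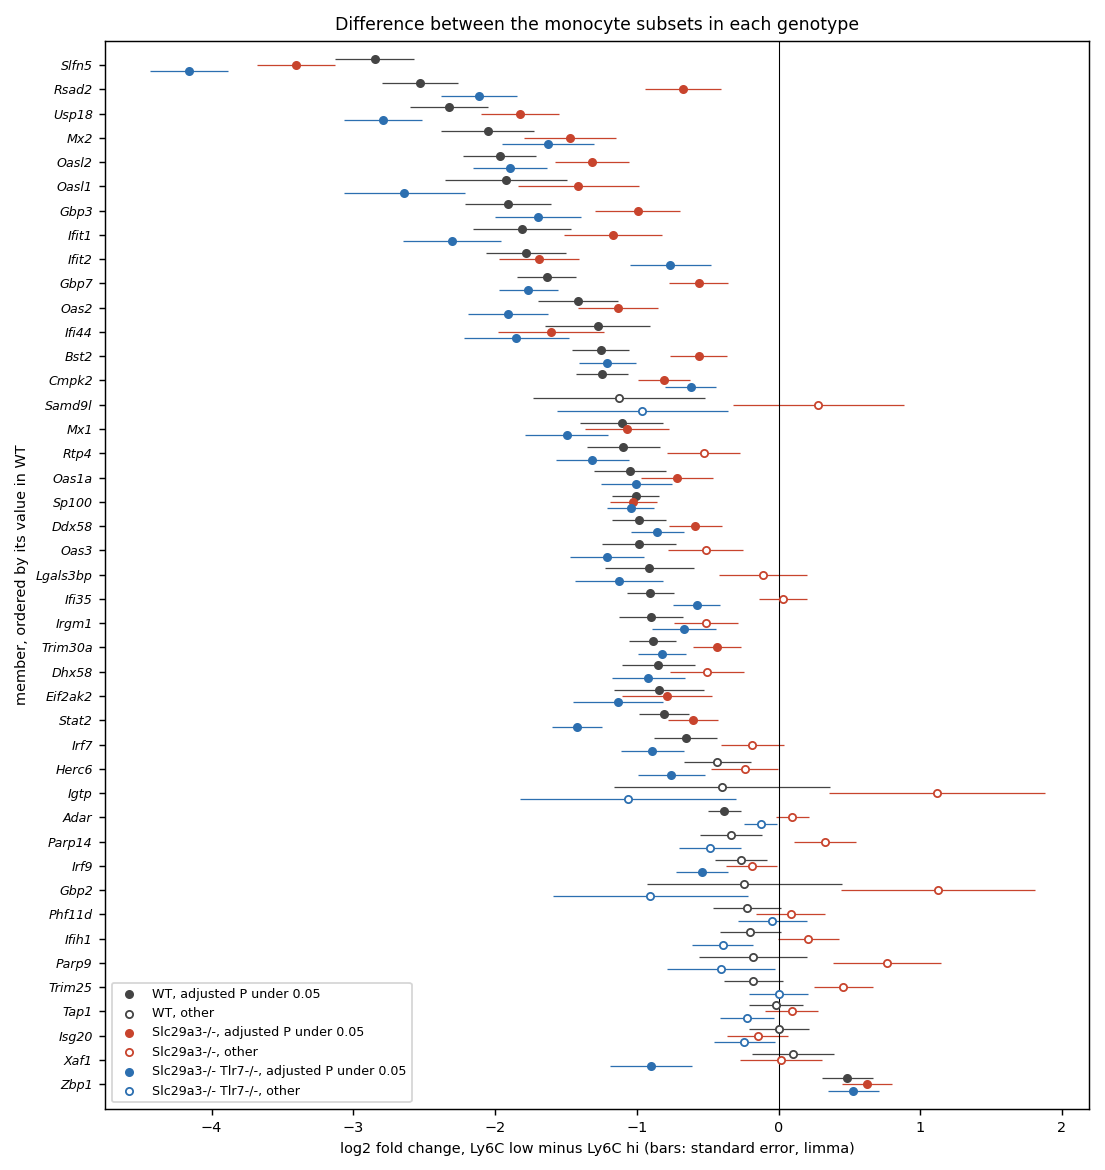
Log2 fold change of each member in Ly6C low against Ly6C hi cells (x axis, bars are standard errors from limma), one colour per genotype and filled where the adjusted P was under 0.05. Slfn5 lies farthest to the left (-2.85 to -4.16), Zbp1 is the only member filled to the right of 0, and Rsad2 and Gbp7 show the Slc29a3-/- point apart from the other two.

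In Ly6C hi cells, Slc29a3-/- mice were lower than Slc29a3-/- Tlr7-/- mice for 13 of the 43 members and higher for 1, where 10.3% of all genes tested were lower and 10% higher. Over the members the median log2 fold change was -0.40, beside -0.12 for all genes, and 40 of the 43 lay below 0. The 13 were 4 effectors (Ifit1, Rsad2, Mx1, Bst2), the sensor Dhx58, 4 regulators (Irf7, Stat2, Trim30a, Parp14), the GTPase Gbp3, and Slfn5, Ifi35, and Phf11d. An alternative added after the data were seen left out both Slc29a3-/- replicate 4 and Slc29a3-/- Tlr7-/- replicate 1. There 5 were lower and 1 higher, beside 13.4% of all genes called, so the share of members was close to that of all genes. Leaving out Slc29a3-/- replicate 4 alone gave 10 called (12.5% of all genes), and leaving out Slc29a3-/- Tlr7-/- replicate 2 gave 18 (19%).

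Irf7 measured 303, 347, 217, and 136 RPM in Slc29a3-/- Ly6C hi libraries and 581, 441, 415, and 349 RPM in Slc29a3-/- Tlr7-/- ones. The groups met closely, the highest of the first lying just under the lowest of the second. The log2 fold change was -0.89 ± 0.24 (adjusted P = 0.016), and it was -0.49 (adjusted P = 0.0712) without the low and the high library named above. Stat2 measured 109.5, 125, 112, and 72.8 RPM against 221, 171, 217, and 185 RPM, a clear gap, at -0.93 ± 0.19 (adjusted P = 0.0033). Trim30a, a regulator of inflammatory signalling whose close paralogs make its level uncertain, measured 343, 372, 342, and 257 RPM against 550.0, 608, 438, and 434 RPM (-0.62 ± 0.14, adjusted P = 0.0075). For Stat2 the call held in each of the 15 alternatives run.

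Among the effectors, Ifit1, which binds foreign RNA caps, measured 44.7, 41.7, 39.9, and 23.1 RPM in Slc29a3-/- Ly6C hi cells and 69.3, 57.2, 57.3, and 59.1 RPM in Slc29a3-/- Tlr7-/- ones (-0.73 ± 0.19, adjusted P = 0.016). Bst2, which encodes the virion tether tetherin, measured 122, 153, 129, and 71.5 RPM against 232, 270.3, 172, and 191 RPM (-0.89 ± 0.21, adjusted P = 0.0092). Neither pair of groups overlapped. Rsad2 stood at 26.5, 30.4, 31.6, and 16.4 RPM against 65.3, 34.1, 39.1, and 61.4 RPM (-0.89 ± 0.23, adjusted P = 0.0145), and Mx1 at 44.9 ± 12.6 against 87.5 ± 30.1 RPM (SD, n = 4; -0.92 ± 0.27, adjusted P = 0.025). The Mx1 groups overlapped, and its call was lost without Slc29a3-/- replicate 4 or without Slc29a3-/- Tlr7-/- replicate 1 or 4 (adjusted P up to 0.092). Without the low and the high library together, Ifit1 had -0.45 (adjusted P = 0.0721), Rsad2 -0.55 (0.0966), and Mx1 -0.58 (0.184).

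Ifit2, the neighbour of Ifit1 and also an RNA-binding effector, went the other way. It measured 27.2, 25.1, 38.9, and 28.6 RPM in Slc29a3-/- Ly6C hi cells, 22.0, 17.7, 11.3, and 17.6 RPM in Slc29a3-/- Tlr7-/- cells, and 11.9, 13.9, 12.8, and 14.8 RPM in WT cells. Every Slc29a3-/- library lay above all 8 others. The log2 fold change was 0.78 ± 0.20 against Slc29a3-/- Tlr7-/- (adjusted P = 0.0146) and 1.09 ± 0.20 against WT (adjusted P = 0.0017), the comparisons sharing the Slc29a3-/- libraries. Slc29a3-/- replicate 4, low for most members, was not low for Ifit2.

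Gbp3 measured 115, 104, 123, and 90.7 RPM in Slc29a3-/- Ly6C hi cells and 138, 269.9, 230.5, and 239 RPM in Slc29a3-/- Tlr7-/- ones (-0.98 ± 0.18, adjusted P = 0.0018), without overlap. Slfn5 measured 157, 178, 116, and 79.1 RPM against 287, 339, 282, and 155 RPM, where the last library of the second group lay within the range of the first (-1.01 ± 0.26, adjusted P = 0.0146). Its call was lost without Slc29a3-/- replicate 4 (adjusted P = 0.0523). Ifi35, an interferon-induced leucine zipper protein, showed the smallest spread: 53.3, 60.9, 53.0, and 47.5 RPM against 89.7, 82.6, 81.3, and 75.0 RPM (-0.61 ± 0.12, adjusted P = 0.0023). The calls of Gbp3 and Ifi35, like that of Ifit2, held in each of the 15 alternatives run.

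**Figure D3:**
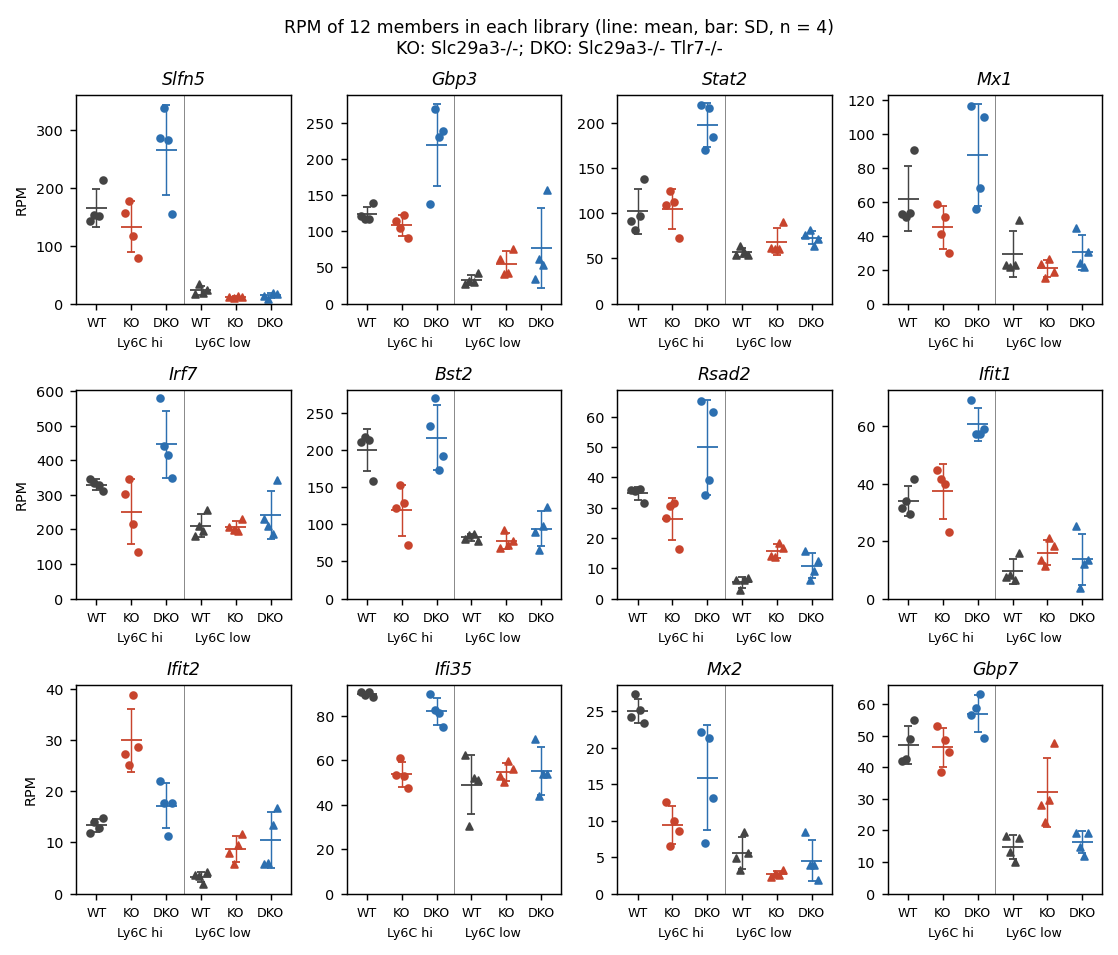
RPM of 12 members in each library (y axes start at 0), with the mean as a line and the SD as a bar (n = 4), Ly6C hi as circles on the left and Ly6C low as triangles on the right of each panel. In Ly6C hi cells the Slc29a3-/- Tlr7-/- libraries of Stat2 and Gbp3 lie above all or nearly all others, Slc29a3-/- libraries are lowest for Ifi35 and highest for Ifit2, and in Ly6C low cells the 4 Slc29a3-/- libraries of Gbp7 lie above the WT ones.

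Against WT, Slc29a3-/- Ly6C hi cells were lower for 4 members and higher for 1, where 17.8% of all genes tested were lower and 10.2% higher, so the share of members called was below that of all genes. The median was -0.22, beside -0.14 for all genes. With TMM scaling, which moved the median of all genes by 0.129 on the log2 scale, 2 were higher and 3 lower. The 4 were Mx2, Bst2, Ifi35, and Trim30a, and the 1 was Ifit2. Mx2 measured 24.3, 27.3, 25.1, and 23.4 RPM in WT and 12.6, 6.48, 9.99, and 8.58 RPM in Slc29a3-/- cells (-1.35 ± 0.29, adjusted P = 0.0042), while its neighbour Mx1 measured 52.4, 50.9, 53.4, and 90.2 against 58.4, 40.8, 51.1, and 29.5 RPM (-0.45 ± 0.27, adjusted P = 0.22). The WT libraries of Mx2 all lay above the Slc29a3-/- ones, and those of Mx1 did not. In Slc29a3-/- Tlr7-/- Ly6C hi cells Mx2 measured 22.18, 6.986, 21.38, and 13.15 RPM, also below every WT library. There it was called neither against WT nor between the mutants. Bst2 measured 210.3, 218, 213, and 158 RPM in WT (-0.78 ± 0.21, adjusted P = 0.014), and Ifi35 measured 90.6, 89.4, 90.7, and 88.5 RPM (-0.74 ± 0.12, adjusted P = 0.0007). No WT library of these genes fell into the Slc29a3-/- range. With replicate 4 alone for WT no member was called, a fit in which that library is assumed to vary like the other groups.

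Slc29a3-/- Tlr7-/- Ly6C hi cells were higher than WT for 3 members and lower for none, where 0.312% of all genes tested were higher and 1.15% lower. The 3 were Stat2, Ifit1, and Gbp3, and the median of the members was 0.31, beside -0.06 for all genes. At a fold over 1.5 with P under 0.05 before adjustment in limma, 6 members were higher and 1 lower (3.12% and 9.44% of all genes). This cut is called the study's threshold below. The study applied a fold of 1.5 and a P of 0.05 to DESeq2 results, and does not say whether its P was adjusted. In 11 members all 4 Slc29a3-/- Tlr7-/- libraries lay above every WT library and in 1 member, Mx2, below, as did 5.45% and 6.32% of all genes. Stat2 measured 91.5, 81.2, 97.3, and 139 RPM in WT (0.97 ± 0.19, adjusted P = 0.038), and Gbp3 measured 122, 117, 117, and 139 RPM (0.78 ± 0.18, adjusted P = 0.048). Ifit1 measured 31.7, 33.9, 29.3, and 41.5 RPM in WT (0.82 ± 0.19, adjusted P = 0.048). The Stat2 and Ifit1 groups did not overlap, and the lowest mutant library of Gbp3 (138 RPM) lay just under the highest WT one. The 3 calls were lost without any one of WT replicates 1 to 3 or Slc29a3-/- Tlr7-/- replicates 2 to 4 (adjusted P up to 0.182), and with the replicate number as a block.

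**Figure D4:**
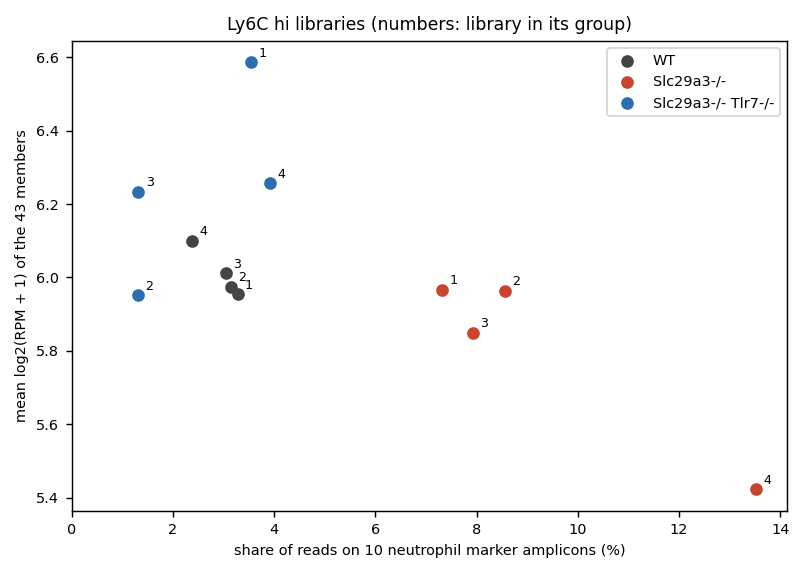
The 12 Ly6C hi libraries by the share of reads on 10 neutrophil markers (x axis, %) and the mean log2(RPM + 1) of the 43 members (y axis), numbered by library within each group. The 4 Slc29a3-/- libraries lie at 7.322 to 13.53% with means of 5.423 to 5.967, WT at 2.377 to 3.279% with 5.955 to 6.1, and Slc29a3-/- Tlr7-/- at 1.316 to 3.93% with 5.952 to 6.587.

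In Ly6C low cells few members differed by genotype. Against WT, 2 were higher in Slc29a3-/- cells and none lower (all genes: 2.02% and 2.63%; median of members 0.24, beside 0.00). At the study's threshold 9 were higher and 3 lower (6.15% and 7.05%). Rsad2 measured 14.1, 13.8, 18.3, and 16.6 RPM in Slc29a3-/- libraries and 6.08, 2.75, 6.11, and 6.74 RPM in WT ones, with no overlap (1.42 ± 0.29, adjusted P = 0.012). It kept its call with each library left out in turn (adjusted P up to 0.0458). Gbp7 measured 28.0, 22.7, 29.7, and 47.8 RPM against 18.1, 13.2, 10.1, and 17.6 RPM, also without overlap (1.05 ± 0.25, adjusted P = 0.031), and lost its call without WT replicate 2 or 3 or Slc29a3-/- replicate 1, 3, or 4 (up to 0.118). Neutrophil markers summed to 71.73 to 2473.7 RPM in WT Ly6C low cells and 27.12 to 193.7 RPM in Slc29a3-/- ones. The 7 red pulp macrophage markers summed to 443.4 to 868.7 RPM in Slc29a3-/- against 266.1 to 334.4 RPM in WT, without overlap and with 2 of the 5 tested called higher. Of the 3 erythroid markers tested 2 were also called higher, and 1 lay at -0.87. The 4 erythroid markers with an amplicon summed to 55.26 to 74.77 RPM in Slc29a3-/- and 37.58 to 95.94 RPM in WT, with overlap. The 6 conventional dendritic cell markers summed to 15.58 to 31.55 RPM in Slc29a3-/- against 39.91 to 77.63 RPM in WT, without overlap. The part of these markers was not tested.

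Slc29a3-/- Tlr7-/- Ly6C low cells were higher than WT for 2 members and lower for none (all genes: 2.50% and 6.37%; median of members 0.16, beside -0.10). At the study's threshold 4 were higher and 2 lower (6.08% and 14.6%). Ifit2 measured 5.73, 5.96, 13.3, and 16.8 RPM against 3.56, 3.36, 1.90, and 4.21 RPM (1.33 ± 0.33, adjusted P = 0.031), and Slc29a3-/- cells read 7.87, 5.76, 9.54, and 11.7 RPM, where the difference from WT was 1.18 ± 0.33 (adjusted P = 0.059). All 8 mutant libraries lay above the 4 WT ones. Zbp1 measured 159, 155, 163, and 264 RPM against 121, 118, 123, and 112 RPM (0.60 ± 0.17, adjusted P = 0.045). The calls of Ifit2 and Zbp1 were each lost without WT replicate 1, 2, or 3 or Slc29a3-/- Tlr7-/- replicate 3 or 4 (adjusted P up to 0.0987 and 0.115). Of the markers tested in the same comparison, 8 of 8 neutrophil, 3 of 3 progenitor, and 6 of 7 T and NK cell markers were called lower, the neutrophil sum standing at 8.26 to 56.65 RPM in Slc29a3-/- Tlr7-/- against 71.73 to 2473.7 RPM in WT, and their part was not tested.

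Between the mutant genotypes, no member was called in limma in Ly6C low cells, where 1.22% of all genes tested were higher in Slc29a3-/- and 0.708% lower. At the study's threshold, applied here to the limma values, 5 members were higher and 1 lower (all genes: 10.8% and 2.92%). The members' median was 0.06, beside 0.08 over all genes. The largest differences belonged to genes whose Slc29a3-/- Tlr7-/- libraries were far apart. Igtp, a GTPase of the Irgm1 family, measured 35.1, 32.1, 3.31, and 0.959 RPM in Slc29a3-/- Tlr7-/- Ly6C low libraries and 42.0, 2.92, 40.5, and 26.5 RPM in the Ly6C hi ones. Gbp2 measured 50.8, 60.9, 5.68, and 7.43 RPM in the first and 48.8, 6.90, 59.7, and 92.0 RPM in the second. The low values of both genes fell in the same 3 libraries, Ly6C low replicates 3 and 4 and Ly6C hi replicate 2. Of 7492 genes with a mean of at least 10 RPM, 39 lay more than 4 times below the lowest other library of the group in all 3, and Gbp2 and Igtp were the members among them (2 of the 39 members with that mean). The Slc29a3-/- minus Slc29a3-/- Tlr7-/- difference in Ly6C low cells was 1.77 ± 0.66 for Gbp2 (adjusted P = 0.19) and 1.86 ± 0.77 for Igtp (adjusted P = 0.21).

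**Figure D5:**
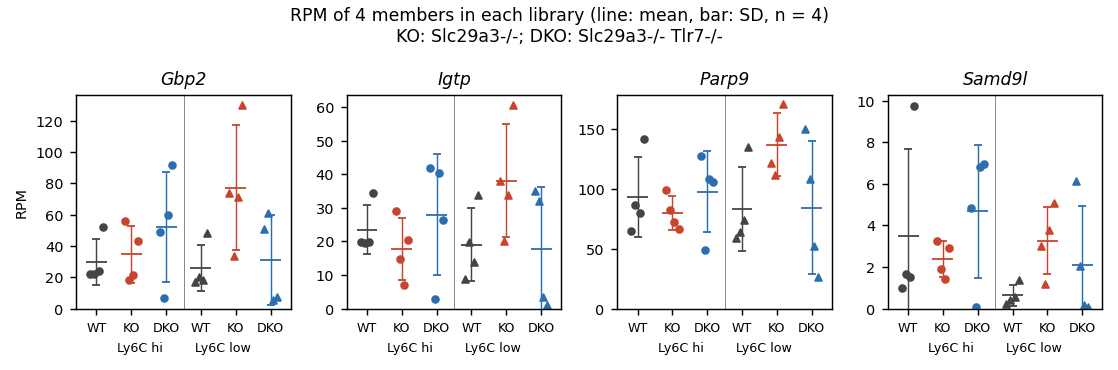
RPM of Gbp2, Igtp, Parp9, and Samd9l in each library (mean as a line, SD as a bar, n = 4). In the Slc29a3-/- Tlr7-/- groups the low points come from Ly6C hi replicate 2 and from Ly6C low replicates 3 and 4, where Igtp lies at 2.92, 3.31, and 0.959 RPM.

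The difference between the subsets was compared across genotypes by an interaction term fitted to the 24 libraries. Between Slc29a3-/- and WT mice 3 members passed, all with a smaller fall in Slc29a3-/- cells, where 4.72% of all genes tested had a positive and 4.13% a negative interaction. They were Rsad2 (1.85 ± 0.38, adjusted P = 0.0025), Gbp7 (1.07 ± 0.29, adjusted P = 0.022), and Ifi35 (0.94 ± 0.23, adjusted P = 0.013). For Rsad2 the Ly6C low minus Ly6C hi difference was -2.53 in WT and -0.67 in Slc29a3-/-, for Gbp7 -1.64 and -0.56, and for Ifi35 -0.90 and 0.03. Ifi35 thus read 53.7 ± 5.5 RPM in Ly6C hi and 54.8 ± 4.15 RPM in Ly6C low cells of Slc29a3-/- mice (SD, n = 4). Gbp7 lost its call without WT Ly6C low replicate 3 or Slc29a3-/- Ly6C low replicate 4 (adjusted P up to 0.0583).

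Between Slc29a3-/- and Slc29a3-/- Tlr7-/- mice 3 members also passed, all positive (all genes: 4.44% positive and 4.54% negative). They were Rsad2 (1.44 ± 0.38, adjusted P = 0.018), Gbp7 (1.20 ± 0.29, adjusted P = 0.012), and Stat2 (0.82 ± 0.25, adjusted P = 0.039), and this comparison shares the Slc29a3-/- libraries with the one before. Gbp7 held in each of the 23 alternatives run. Rsad2 lost its call without Slc29a3-/- Ly6C hi replicate 4 (adjusted P = 0.0543), and Stat2 lost it in 12 alternatives, among them TMM scaling (0.60, adjusted P = 0.113). Between Slc29a3-/- Tlr7-/- and WT mice no member passed in limma (all genes: 0.0362% positive and 0.0272% negative), and at the study's threshold 2 were positive and 3 negative (3.50% and 4.29%). That threshold gave 7 positive members and none negative for Slc29a3-/- with WT (12.3% and 7.94%), and 14 and 1 between the mutants (14.6% and 8.07%).

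Of the fixed examples, Irf9, Usp18, Oas1a, Ifih1, Ddx58, Irgm1, and Tap1 were not called between genotypes in either subset. Irf9 measured 93.9, 97, 91.8, and 94.5 RPM in WT, 83, 132, 86.3, and 66.3 RPM in Slc29a3-/-, and 126, 140.2, 115, and 93.9 RPM in Slc29a3-/- Tlr7-/- Ly6C hi cells. Irgm1 measured 104, 95.3, 96.4, and 98.9 RPM, then 120.0, 110.1, 89.9, and 85.4 RPM, then 129, 124, 112, and 124 RPM in the same order. Slc29a3-/- Tlr7-/- cells read the most Irf9 and Irgm1 on average, by 0.32 and 0.31 over WT on the log2 scale (adjusted P = 0.31 and 0.16). Ddx58 measured 18.7, 11.6, 15.7, and 17.9 RPM in WT, 25.3, 26, 23.7, and 27.6 RPM in Slc29a3-/-, and 30.9, 19.3, 25.2, and 20.1 RPM in Slc29a3-/- Tlr7-/- Ly6C low cells. All 8 mutant libraries of Ddx58 lay above the WT ones there, at 0.67 ± 0.20 and 0.55 ± 0.20 over WT (adjusted P = 0.067 and 0.085). Ifih1 measured 55.8, 48.3, 53.5, and 92.5 RPM in WT and 69.5, 77.6, 79.5, and 85.6 RPM in Slc29a3-/- Ly6C low cells, with overlap (0.36 ± 0.19, adjusted P = 0.32). Tap1 measured 239, 219.9, 232, and 149 RPM in WT and 157, 178, 114, and 156 RPM in Slc29a3-/- Ly6C hi cells, also with overlap (-0.46 ± 0.19, adjusted P = 0.084).

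Genes above the members in the pathway were read on the same scale. Of 20 interferon genes 16 had an amplicon, and only Ifng passed the filter, in Ly6C hi cells. Ifng, the type II interferon made by T and NK cells, measured 23.0, 22.9, 24.7, and 1.01 RPM in WT Ly6C hi libraries, 0.637, 0.474, 0.079, and 1.19 RPM in Slc29a3-/- ones, and 3.47, 0.569, 0, and 4.09 RPM in Slc29a3-/- Tlr7-/- ones. Its fall in Slc29a3-/- against WT (-3.09 ± 0.72, adjusted P = 0.0063) rested on WT replicates 1 to 3, in which T and NK cell markers summed to 467.2 to 516.5 RPM against 124.4 RPM in WT replicate 4. Ifnb1, the first interferon made on sensing, did not exceed 0.971 RPM in any library. In Ly6C hi cells it measured 0.486, 0.971, 0.56, and 0.468 RPM in WT and 0.159, 0, 0, and 0.238 RPM in Slc29a3-/-. It was 0 in every Slc29a3-/- Tlr7-/- Ly6C hi library, but 0.888 and 0.477 RPM in Ly6C low replicates 1 and 2 of that genotype. Being below the filter, its difference was not tested. The type I receptor genes were read in every library, Ifnar1 at 172 to 223 and Ifnar2 at 92.6 to 117 RPM as Ly6C hi group means, and neither was called between genotypes.

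Of 9 receptor and kinase genes, 1 was higher and 2 lower in Slc29a3-/- than in WT Ly6C hi cells, and likewise 1 and 2 against Slc29a3-/- Tlr7-/- cells. Over all genes 10.2% were higher and 17.8% lower in the first comparison and 10% and 10.3% in the second, and these shares also stand behind the counts of the other pathway lists given here for the same comparisons. Ifnlr1, a chain of the type III receptor, was the one higher in both (1.65 and 1.92), and Ifngr1, a chain of the IFN-γ receptor, fell in both (-0.58 and -0.85). Of 6 further interferon regulatory factors, none was higher and 4 were lower in Slc29a3-/- than in WT Ly6C hi cells, and 3 were lower than in Slc29a3-/- Tlr7-/- cells. Irf8, which directs monocyte and dendritic cell fate, measured 677, 630.0, 672, and 582 RPM in WT, 323, 231, 233, and 179 RPM in Slc29a3-/-, and 566, 355, 475, and 510.2 RPM in Slc29a3-/- Tlr7-/- Ly6C hi cells. No Slc29a3-/- library reached either other group (-1.43 ± 0.18, adjusted P = 0.00016, against WT). Irf1 measured 433, 422, 416, and 361 RPM in WT and 340.2, 199.8, 203, and 244 RPM in Slc29a3-/- cells (-0.75 ± 0.19, adjusted P = 0.01).

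A list of 12 genes held Tlr7, genes of its pathway, and the related receptor genes Tlr8 and Tlr9. None of the 12 was higher in Slc29a3-/- Ly6C hi cells. There 3 were lower than in WT (Unc93b1, Tlr7, Traf6) and 4 lower than in Slc29a3-/- Tlr7-/- cells (Tlr8, Tlr9, Tlr7, Unc93b1). The first count stood beside 17.8% of all genes lower, and the second beside 10.3%. The Tlr7 amplicon itself measured 227, 199, 181, and 111 RPM in Slc29a3-/- against 322, 259, 344, and 343 RPM in Slc29a3-/- Tlr7-/- Ly6C hi cells (-0.85 ± 0.20, adjusted P = 0.0089). The double mutant thus read more of it, without overlap. In the cytosolic sensing list of 5, Samhd1, which depletes nucleotides, was higher than WT in the Ly6C low cells of both mutants (1.06 and 1.35), and Tmem173, which encodes STING, was lower in Ly6C low than in Ly6C hi cells of each genotype (-0.93, -0.58, and -1.04).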

How the data were processed

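Libraries were made with an Ion AmpliSeq mouse transcriptome kit, which amplifies 1 short stretch per gene, from RNA with a RIN over 7.3, and aligned to mm10. The authors deposited 1 table of 23930 amplicons in reads scaled to 1000000 per library (RPM). Whether the kit's own counting or the pipeline in the methods wrote it is not given in the sources used here. Values written 0.0001 were set back to 0, and 27 gene names turned into dates were repaired from the amplicon names. Depth was inferred from the even step between values under 5 RPM, of which 100.0% were whole numbers of reads within 0.1 read. A read floor covers counting error only, whereas SD and SE give the spread between libraries.

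Genes reaching 1 RPM in 4 or more of a subset's 12 libraries (10561 in Ly6C hi, 10317 in Ly6C low) were fitted as log2(RPM + 1) over the 3 genotypes with limma 3.58.1 in R 4.3.3 (eBayes with trend). Subset differences and interactions were fitted over all 24 libraries (11042 genes). All log2 fold changes take this scale, so the change of low genes is understated, and are given ± SE with the Benjamini-Hochberg adjusted P over all genes tested, called under 0.05. The study's own threshold, a fold over 1.5 and an unadjusted P under 0.05, was an alternative, as were TMM scaling, no filter, only genes whose mean reached 10 RPM, 0.1 as the pseudocount, a replicate block, replicate 4 alone for WT, and each library left out. Alternatives added after the data were seen left out Slc29a3-/- replicate 4 and Slc29a3-/- Tlr7-/- replicate 1 of Ly6C hi, or left out Slc29a3-/- Tlr7-/- replicate 2 of Ly6C hi and 3 and 4 of Ly6C low. The fits were tested on simulated data. As a check of pairing, deviations of same-numbered libraries of the 2 subsets were correlated. All 4 WT pairs were positive (0.2595 to 0.6193). For WT replicates 2 and 3, however, a library of another number correlated more (0.3004 and 0.3225, against 0.2595 and 0.2634). WT replicate 4 stood apart in both subsets, which by itself makes the other WT deviations alike. The check therefore cannot show whether the numbers pair the WT subsets. The Slc29a3-/- (-0.0813 to 0.2552) and Slc29a3-/- Tlr7-/- pairs (-0.4561 to 0.3378) were not all positive. Xist and Ddx3y were read alike (10 RPM or more) in 11 of the 12 pairs, and the labels do not name the mouse.

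The members, the lists, and the tests were chosen with earlier results of these data known. Fixed examples and, per comparison within a subset, the 3 largest rises and falls among called members with a mean of at least 10 RPM were chosen to be given by library, with the subset a result turns on. Other genes were named after their values were seen. Promoters and positions are RefSeq's on GRCm38.p6. Figures were drawn in matplotlib 3.10.9 from tables made with pandas 2.3.3 and numpy 2.4.6 (Python 3.11.15).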

Additional observations from a re-analysis of the deposited data

Results flagged for a closer look

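Of 126 groups of 4 libraries examined for the members given per library, 13 held a library whose gap to its nearest neighbour, as a share of the group's range in log2(RPM + 1), passed Dixon's test. Chance gives about 1 in 20. WT replicate 4 was that library in 7 of the 13. In Ly6C hi cells it read Mx1 at 90.25 RPM (others 50.86 to 53.43), Gbp2 at 52.02 (22.06 to 23.67), and Slfn5 at 214.0 (143.6 to 152.9), all high, but Rsad2 at 31.67 (35.59 to 35.99) and Bst2 at 157.9 (210.3 to 217.6), both low. In Ly6C low cells it read Mx1 at 49.43 (21.68 to 22.78) and Gbp2 at 48.13 (17.26 to 20.04), both high.

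The other libraries were spread over groups. WT Ly6C low replicate 1 read Irgm1 at 76.11 RPM (others 44.67 to 47.13), and replicate 2 of that group read Rsad2 at 2.745 (6.081 to 6.744). Slc29a3-/- Ly6C low replicate 4 read Stat2 at 90.73 (60.34 to 61.94). In Slc29a3-/- Tlr7-/- cells, Ly6C hi replicate 1 read Ifit1 at 69.32 (57.18 to 59.09), Ly6C hi replicate 2 read Ifih1 at 55.48 (91.17 to 92.58), and Ly6C low replicate 4 read Zbp1 at 264.1 (155.0 to 163.2).

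A subset difference that itself differed between genotypes, by the interaction in limma, was found for Rsad2 (1.855), Gbp7 (1.072), and Ifi35 (0.9354) between Slc29a3-/- and WT mice, and for Rsad2 (1.441), Gbp7 (1.203), and Stat2 (0.8219) between Slc29a3-/- and Slc29a3-/- Tlr7-/- mice.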

How the results depend on the processing

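No called value reversed. With replicate 4 alone for WT, calls were lost in each comparison with WT that had any, and in the subset difference of WT. The members' medians of Slc29a3-/- and Slc29a3-/- Tlr7-/- against WT went from -0.22 and 0.31 to -0.26 and 0.24 in Ly6C hi cells. In Ly6C low cells that of Slc29a3-/- went from 0.24 to 0.09, and that of Slc29a3-/- Tlr7-/- turned from 0.16 to -0.10. In Ly6C hi cells the 3 members of Slc29a3-/- Tlr7-/- against WT became 7 at the study's threshold, 0 with no filter, 1 at a mean of at least 10 RPM, 1 with a pseudocount of 0.1, 0 without the 3 Slc29a3-/- Tlr7-/- libraries low for Gbp2, and 5 without Slc29a3-/- replicate 4 and Slc29a3-/- Tlr7-/- replicate 1. The 14 of Slc29a3-/- against Slc29a3-/- Tlr7-/- became 5 with no filter (5.2% of all genes) and 6 without those last 2 libraries (13.4%). In Ly6C low cells the 2 members of Slc29a3-/- against WT became 12 at the study's threshold and 0 with no filter. The 2 of Slc29a3-/- Tlr7-/- against WT became 6 at the study's threshold, 0 with no filter, 1 at a mean of at least 10 RPM, and 0 without the 3 libraries low for Gbp2, and the 0 between the mutants became 6 at the study's threshold. The interactions became 7, 5, and 15 at that threshold (each mutant with WT, Slc29a3-/- first, and then between the mutants), and the last became 1 with no filter and 1 without the low and the high Ly6C hi library. The cause was not tested beyond the fewer samples or more genes that some of these alternatives hold by construction.

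Leaving out each library in turn gave 5 to 8, 0 to 5, and 10 to 18 called members in Ly6C hi cells (Slc29a3-/- against WT, Slc29a3-/- Tlr7-/- against WT, and between the mutants), and 1 to 7, 0 to 6, and 0 to 1 in Ly6C low cells. The subset differences gave 25 to 29, 16 to 24, and 28 to 33, and the interactions 2 to 4, 0 to 0, and 1 to 9, in the orders used above. Of all genes, 24.9% and 31.1% were called in either direction beside the 25 and the 29. Beside the 16 (15 of them lower) and the 24 the shares were 36.6% and 36.2%. Beside the 28 the share was 29.9% or 34%, and beside the 33 it was 33.9%. The 10 and 18 between the mutants stood beside 12.5% and 19%, and the interaction counts of 2 and 4 beside 6.71% or 7.05% and 11.2%. The highest counts against WT (8, 5, 7, and 6) came without WT replicate 4, the 6 also without Slc29a3-/- Tlr7-/- Ly6C low replicate 1. Without WT replicate 4, 28.5%, 11.1%, 15.8%, and 20.3% of all genes were called in the same order. Without Slc29a3-/- Tlr7-/- Ly6C low replicate 1 the share beside the 6 was 13.8%. The 1 and the 9 of the interaction between the mutants came without Slc29a3-/- Ly6C hi replicate 4 and Slc29a3-/- Tlr7-/- Ly6C low replicate 1 (5.2% and 10.8% of all genes).

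Between genotypes, same-numbered libraries did not all deviate together (-0.1868 to 0.1531 in correlation), so they share only a number there. Between the subsets every pair was over 0.1 in WT alone, which cannot show pairing because WT replicate 4 stood apart in both subsets. With the replicate block, the WT subset difference gave 29 members, the call of Zbp1 being lost. In the Slc29a3-/- Tlr7-/- subset difference the call of Ifit2 (-0.76) had an adjusted P of 0.0548 in limma with the block, and the Ly6C hi count of Slc29a3-/- Tlr7-/- against WT became 0 and the Ly6C low one 1, and no other count of members moved by over 1.5 times. TMM scaling moved the median over all genes by 0.129 in Slc29a3-/- against WT, 0.030 in Slc29a3-/- Tlr7-/- against WT, and 0.099 between the mutants (Ly6C hi), where the members' medians became -0.08, 0.34, and -0.29, beside -0.01, -0.03, and -0.02 over all genes. It moved the all-gene median of the interactions of Slc29a3-/- with WT and between the mutants by -0.162 and -0.191, the members' medians becoming 0.28 and 0.39. edgeR on reads rebuilt from the RPM steps, planned as an alternative, was not run.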

Other observations

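Of 49 further interferon-inducible genes that passed the filter, 4 were higher and 18 lower in Ly6C low than in Ly6C hi cells of WT mice, 11 and 13 in Slc29a3-/- mice, and 7 and 20 in Slc29a3-/- Tlr7-/- mice. Over all genes the higher and lower shares were 10.5% and 19.1%, 22.1% and 19.1%, and 11.8% and 21.4% in this order. The difference between these genes and the members was not tested. Cd274, which encodes the checkpoint ligand PD-L1, was higher by log2 fold changes of 2.92, 3.13, and 2.76, and Ifitm1, a membrane restriction factor, by 2.48, 3.56, and 2.89. The log2 fold changes of Ifi205, of the interferon-inducible p200 family, were -2.95, -3.55, and -3.0, and those of Cxcl10, a chemokine that draws activated T cells, were -2.32, -3.08, and -3.19. These genes were chosen after their values were seen.

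In Slc29a3-/- Ly6C hi cells, 2 of the 49 were higher and 6 lower than in WT, and 1 was higher and 11 lower than in Slc29a3-/- Tlr7-/- cells (all genes: 10.2% and 17.8%, then 10% and 10.3%). Ly6a and Gbp4 lay at -1.57 and -1.48 against WT, and Ifi204 at -1.04 against Slc29a3-/- Tlr7-/-. The immunoproteasome gene Psmb9 was higher than WT in both mutants (0.50 in Slc29a3-/- and 0.95 in Slc29a3-/- Tlr7-/-). In Ly6C low cells, Dtx3l, the partner of Parp9, was higher than WT in both mutants (1.52 and 1.02), and Gbp5 in Slc29a3-/- cells (1.22), while none of the 49 was called between the mutants in limma.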
